A study of Mus musculus with 6 samples.

Results

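The locus described here is a 30001-base stretch of mouse chromosome 9, from 123910000 to 123940000 in build mm10, around the lncRNA gene Gm51701. It was chosen by the measured methylation difference between KI and Control in these same libraries, with a core from 123924001 to 123926000. Across the 6 libraries the locus held 81 cytosine positions of CpGs, counted by strand, of 1352372 in the whole series. Of these, 56 lay in the core and 25 in the flanks. Covered in all 6 libraries, and called shared positions, were 25 positions of the core and 8 of the flanks, of 552338 in the series.

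An enhanced form of reduced representation bisulfite sequencing (eRRBS) read methylation at single CpGs in 6 libraries, 1 for each genotype and cell type. KI mice had the genotype IDH1+/lsl VavCre+, and Control mice were IDH1+/+ VavCre+ littermates, so both carried Cre under the blood-cell promoter Vav. All were male C57BL/6 mice of 7 to 10 months, and marrow was pooled from 6 mice per group. The sorted cells were long-term haematopoietic stem cells (LT-HSC, Lin- Sca+ Kit+ CD150+ CD48-), short-term haematopoietic stem cells (ST-HSC, CD150+ CD48+) and multipotent progenitors (MPP, CD150-). The files hold no expression, so neither the sort markers nor the knock-in allele could be checked in them. With 1 library per group, differences between KI and Control below are between libraries and carry no test.

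Methylation of cytosine in CpGs near gene starts goes with a silent gene in many tissues. TET enzymes oxidise methylated cytosine, with 2-oxoglutarate made by IDH1 and IDH2 as a cofactor, and the mutant IDH1 of leukaemias makes 2-hydroxyglutarate, which inhibits them. The labels do not name the mutation of the allele. Long noncoding RNAs such as Gm51701 are transcripts without a protein product, and the function of Gm51701 is not known from the sources used here.

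The RefSeq gene Gm51701 spans 123925148 to 123928706 (3559 bases) on the forward strand and was the 1 gene overlapping the locus. Its neighbours were the pseudogene Gm2774, 56118 bases upstream, and Ccr1, a chemokine receptor gene, 33420 bases downstream. The promoter sequence below, from RefSeq (GRCm38.p6, the same coordinates as mm10), covers chr9:123924898-123925197 on the forward strand, with 250 bases before the gene start and 50 after it. It is shown because it lies inside the core and holds measured CpGs. Capitals mark the CpGs measured in at least 1 library.
Gm51701 promoter: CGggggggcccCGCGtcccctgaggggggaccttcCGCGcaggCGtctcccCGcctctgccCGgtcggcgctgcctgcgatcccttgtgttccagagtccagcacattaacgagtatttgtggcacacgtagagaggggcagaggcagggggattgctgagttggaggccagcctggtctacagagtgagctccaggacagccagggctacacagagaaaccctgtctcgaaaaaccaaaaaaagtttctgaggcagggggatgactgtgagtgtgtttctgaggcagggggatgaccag

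All 13 positions measured in this window fell on a CpG of the printed sequence. It has 14 CpGs, of which 8 were measured, and 36.3% of 32851 promoters of the same length have at least as many (median 7). The 8 measured CpGs all lie in its first 64 bases, which end in CCGG, the site cut by MspI, the usual enzyme of this assay. CCGG, which reads the same on both strands, occurs once here and in 52.8% of those promoters. No word of 20 letters from the first 64 bases, read on both strands, occurred in the promoter of another of 27025 genes. The 236 bases after them shared such a word with 63 genes (0.233%). The letters of the other measured parts of the locus are not shown here.

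The measured positions fell into 7 stretches, formed from positions covered in at least 4 libraries with gaps of at most 50 bases. Stretch A lay 1544 to 1472 bases upstream of the RefSeq gene start, in the flank. The core held stretches B (511 to 414 bases upstream), C (356 to 315 upstream), D (250 to 207 upstream) and E (339 to 399 downstream, inside the gene). Stretches F and G, with 2 positions each, lay 1805 to 1824 and 7989 to 8027 bases downstream. Whether they are exonic is not given in the gene table used here.

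The core was almost unmethylated in all 3 KI libraries and largely methylated in Control. Over its 25 shared positions, the median level was 0% (0 to 19%) in KI LT-HSC, 0% (0 to 22.6%) in KI ST-HSC and 0% (0 to 19.3%) in KI MPP. In Control LT-HSC the median was 61.6% (52.5 to 84.3%), in Control ST-HSC 63.1% (37.0 to 71.0%) and in Control MPP 67.8% (38.3 to 83.3%). No KI value at any of these positions reached the lowest Control value. KI had 0 methylated reads at 17 of the 25 positions for LT-HSC, 19 for ST-HSC and 15 for MPP, and Control had such a position in no library. The mean difference, KI minus Control, over positions was -60.7 (LT-HSC), -54.8 (ST-HSC) and -64.1 (MPP) points, on average -59.8 ± 4.7 (SD over 3 cell types, which are not replicates).

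**Figure D1:**
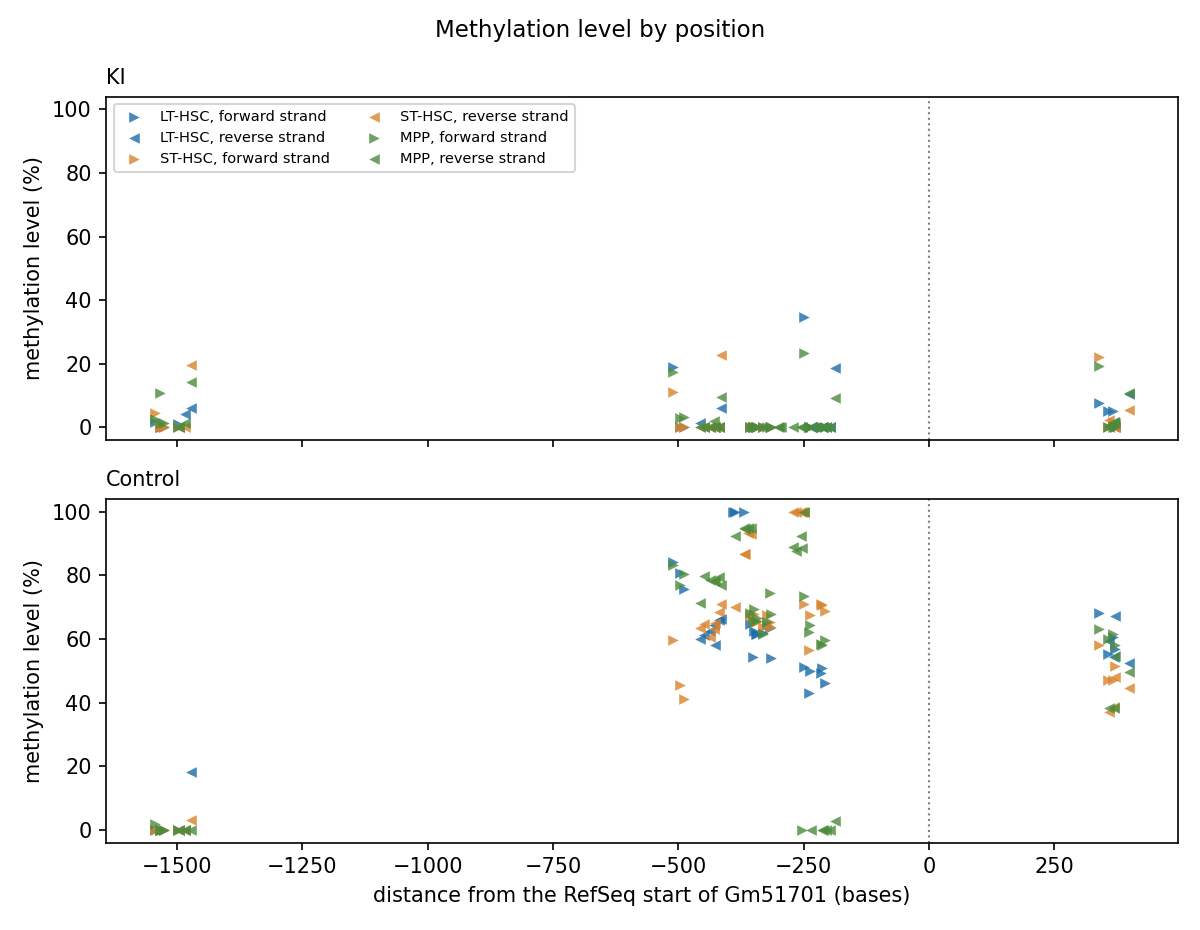
Methylation level in percent at each measured position of stretches A to E and between them against its distance from the RefSeq start of Gm51701 (dotted line), in KI (upper panel) and Control (lower panel). Colours stand for cell types and triangles point along the strand. The KI points stay under 35%, and the Control points shared by all libraries in stretches B, C and E lie at 37.0 to 84.3%.

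At all 25 shared positions of the core the level in KI was at least 25 points lower in every cell type, and at 0 of the 8 shared flank positions. Those 8 lie in stretch A, where Control levels reached 18.2% at most, so a fall of 25 points was not possible there. Over the whole series 115 of 552338 shared positions passed this difference, or 0.0208%. The locus was chosen on this contrast, so the count is a description. No position lay close to the limit. Nearest inside it was the reverse-strand base 123925507 in stretch E, at 0, 2.45 and 0.826% in KI LT-HSC, ST-HSC and MPP, against 59.5, 37.0 and 38.4% in Control. Nearest outside was base 123923651 in stretch A, at 0% in all 6 libraries.

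Upstream, the difference was seen in stretch B and not in stretch A, where Control was itself near 0 and a large fall could not show. Stretch A was unmethylated in both genotypes, with means over 8 positions of 1.60, 3.01 and 3.95% in KI LT-HSC, ST-HSC and MPP, against 2.27, 0.368 and 0.245% in Control. Stretch B, over 10 positions, stood at 2.66, 3.38 and 3.52% in KI and at 67.9, 60.3 and 78.3% in Control, in the same order of cell types. Stretch C held no methylated read in KI. Its 7 shared positions averaged 0% in each KI library, against 60.1, 65.7 and 66.4% in the Control libraries of LT-HSC, ST-HSC and MPP. Stretch E, inside the gene, averaged 3.77, 3.97 and 4.23% in KI and 59.3, 46.5 and 53.0% in Control.

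Stretch D, whose sequence is in the promoter above, was not covered in KI ST-HSC. On the forward strand its 6 positions averaged 5.77% in KI LT-HSC and 3.89% in KI MPP, against 48.4% in Control LT-HSC, 67.6% in Control ST-HSC and 62.7% in Control MPP. Both KI means came from 1 position, the first C of the printed sequence, at 34.6% of 26 reads in KI LT-HSC and 23.3% of 30 reads in KI MPP. Its other 5 forward positions were at 0% in both.

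That placing recurred in other core stretches. For each of them and each strand, the outermost position is the first base for forward reads and the last base for reverse reads. In KI it had the highest level of its strand within the stretch in 14 of 17 cases, the other 3 being stretch C with 0% throughout. Each case is a strand of a stretch in a library, so the same positions recur across libraries. The reverse strands of stretches C and D are not among the cases. How often an outermost position is the highest over the series is not given here. KI levels in these stretches reached 34.6% at the outermost positions and 5.26% at the others. In Control the outermost position was the highest in 11 of 18 cases. For example, the outermost forward position of stretch B was at 19, 11.1 and 17.5% in KI LT-HSC, ST-HSC and MPP, against 84.3, 59.6 and 83.3% in Control. The next position was at 0, 0 and 3.08% in KI, against 80.8, 45.5 and 76.8% in Control. The highest KI values of these stretches thus sat at outermost positions.

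The libraries also differed in how many reads the core took, and the size of that difference changed from stretch to stretch. Coverage summed over all positions was 53884467, 38284759 and 51951665 in KI LT-HSC, ST-HSC and MPP, against 48966606, 39461301 and 44752796 in Control. A read over several CpGs counts at each of them in this sum. Scaled reads below are reads per 1000000 of this sum, as a mean over shared positions. In stretch C the KI libraries had 0.207, 0.284 and 0.275 scaled reads in LT-HSC, ST-HSC and MPP, against 4.10, 5.34 and 4.15 in Control, or 0.0504, 0.0531 and 0.0662 of Control. In reads, these were 10 to 15 at each position in KI and 152 to 216 in Control. The deposited files stop at 10 reads, so KI positions below that are missing and the true ratio may be lower still.

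Stretch E had 0.909, 4.21 and 2.63 scaled reads in KI LT-HSC, ST-HSC and MPP, against 13.5, 14.2 and 10.4 in Control. Its forward strand alone had a mean of 38, 169.5 and 164 reads in KI, against 960, 776 and 684 in Control. The Control values were among the highest of the series, with 0.0482, 0.0505 and 0.0583% of all positions in LT-HSC, ST-HSC and MPP at least as deep. In KI the corresponding shares were 57.5, 0.522 and 0.787%. Stretch B differed less, with 0.566, 0.343 and 0.345 of the Control coverage in LT-HSC, ST-HSC and MPP. In stretch A the direction turned, and KI coverage was 4.20, 1.20 and 1.47 times that of Control.

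**Figure D2:**
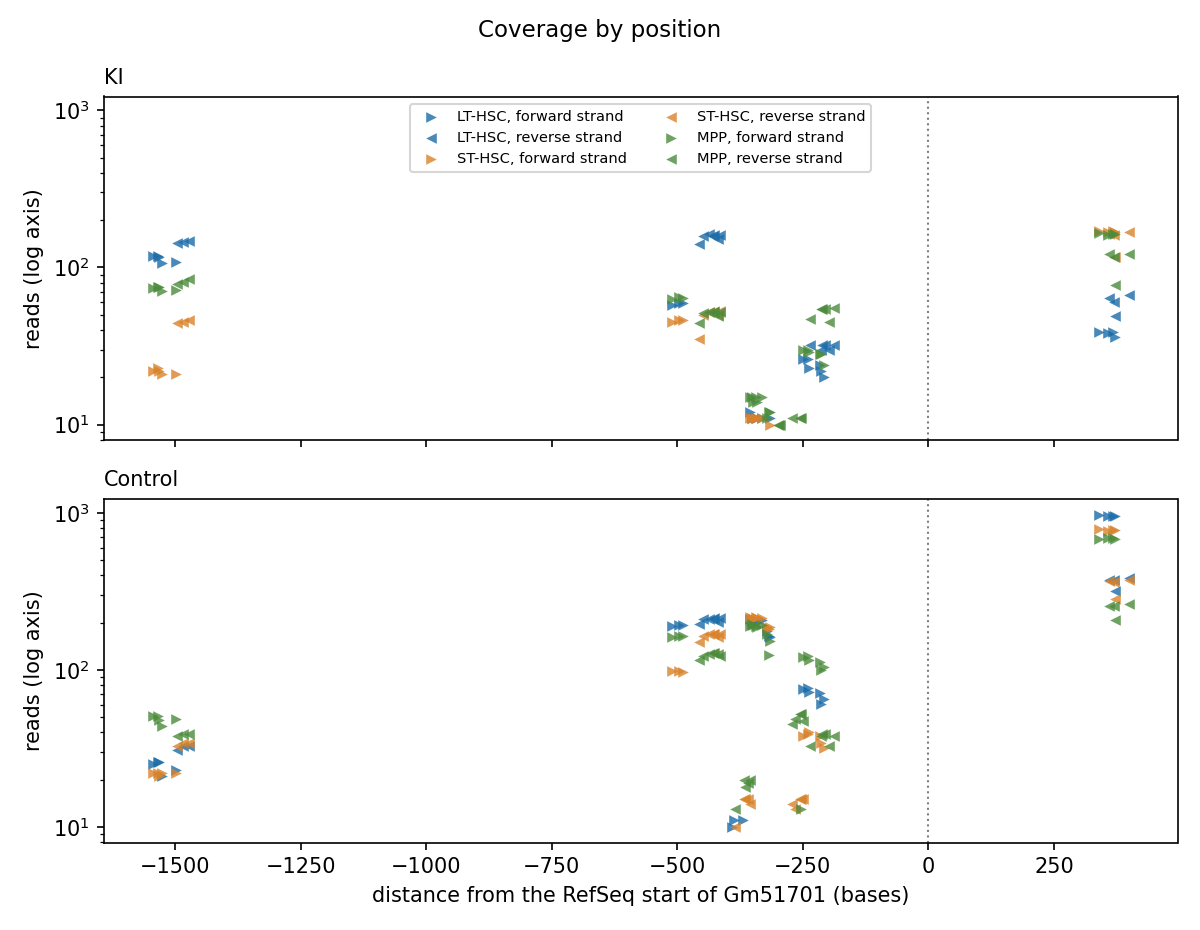
Reads at each measured position of stretches A to E and between them (log axis) against its distance from the RefSeq start of Gm51701 (dotted line), in KI (upper panel) and Control (lower panel), with colours for cell types and triangles along the strand. KI reads in stretch C, 356 to 315 bases upstream, lie at 10 to 15 and Control forward reads there at 125 to 216. In stretch E Control reaches 974 reads.

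At 11 of the 33 shared positions of the locus, scaled coverage in KI was at most 1/3 of Control in all 3 cell types, against 45 of 552338 positions (0.00815%) in the series. These were the 7 of stretch C and the 4 forward positions of stretch E. The same 11 were the positions of the series past both this limit and the 25-point difference. None of the 5 sequencing lanes held both genotypes, and the effects of lane and of genotype cannot be told apart.

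Split by methylation, KI had few methylated reads in the core, and in stretches C and E it had fewer unmethylated reads than Control as well. In stretch C unmethylated scaled reads were 0.207, 0.284 and 0.275 in KI LT-HSC, ST-HSC and MPP, against 1.63, 1.83 and 1.40 in Control. In stretch E they were 0.875, 4.03 and 2.51 in KI and 5.46, 7.39 and 4.52 in Control. Stretch B was different. Its unmethylated reads were 2.31, 1.21 and 1.01 in KI and 1.35, 1.40 and 0.652 in Control, so KI was 1.72, 0.868 and 1.54 times Control. Methylated scaled reads there were 0.0427, 0.0444 and 0.0404 in KI and 2.82, 2.27 and 2.38 in Control.

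**Figure D3:**
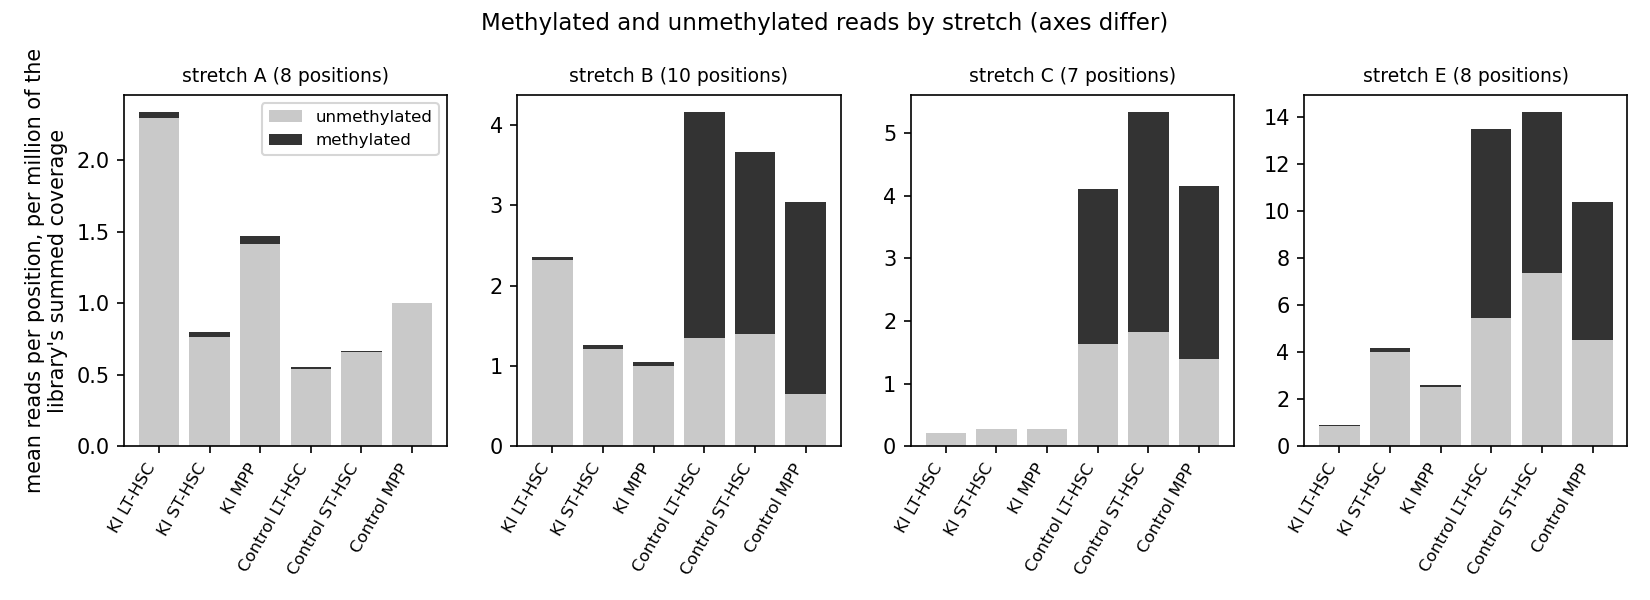
Mean unmethylated (grey) and methylated (black) reads per position, per 1000000 of each library's summed coverage, in stretches A, B, C and E over shared positions, with 1 bar per library and KI left of Control (the vertical axes differ). In stretch E the black part reaches 0.176 in the highest KI library and is 5.87 or more in every Control library.

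Counting error was small beside these differences where coverage was high. At base 123924721 of stretch B, on the reverse strand, KI had 0 methylated of 161, 53 and 52 reads in LT-HSC, ST-HSC and MPP, which allows levels of up to 1.86, 5.66 and 5.77% (3 reads of the total). In Control it had 57.9% (Wilson 95% interval 51.2 to 64.4), 65.1% (57.6 to 71.9) and 78.1% (70.2 to 84.4). In stretch C the 0 of 12, 11 and 15 reads at base 123924792 in KI allow up to 25, 27.3 and 20%, still under the Control values of 64.8, 67.6 and 68.1%. These limits cover counting error only, because copies of 1 molecule made by amplification count as separate reads.

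The strands of the same CpG differed in Control and hardly in KI, whose levels were near 0 on both. At CpGs read on both strands within a library, the median absolute difference between strands was 0, 0.882 and 0 points in KI LT-HSC, ST-HSC and MPP (8, 4 and 8 CpGs). In Control it was 5.24, 9.27 and 26.7 points (4, 6 and 12 CpGs). In stretch D of Control MPP, CpGs at 123924911, 123924933, 123924935 and 123924941 were far apart. Their forward strands stood at 64.3, 58.4, 58.0 and 59.6% on 100 to 115 reads, while the reverse strands were all at 0% on 33 to 39 reads. The CpG 4 bases before the stretch, at 123924894, went the other way, with 0% on the forward strand (13 reads) and 88.5% on the reverse (52 reads). Along the reverse strand of that library, the positions from 123924877 to 123924899 were at 87.8 to 100%, and those from 123924912 to 123924960 at 0 to 2.63%. The second run ends inside the CCGG of the printed promoter, and in KI LT-HSC and KI MPP its last base was at 18.8 and 9.09% and its others at 0%. The 2 strands of a fragment are separate molecules in the library, and how many molecules lie behind these reads is not known.

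Strand also shaped coverage in stretch E. Forward over reverse coverage was 0.633, 1.11 and 1.50 in KI LT-HSC, ST-HSC and MPP, against 2.65, 2.23 and 2.78 in Control. The mean level there was 4.52, 6.00 and 4.82% on the forward strand in KI and 3.03, 1.94 and 3.64% on the reverse. In Control it was 60.2, 51.0 and 60.7% on the forward strand and 58.4, 42.0 and 45.2% on the reverse.

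Some core positions reached the deposited minimum of 10 reads in 1 genotype only. In the core, 11 positions reached it in Control libraries and in no KI library, and 3 in KI alone. The Control ones were highly methylated, their medians being 100% for 3 positions of LT-HSC, 92.9% for 7 of ST-HSC and 94.6% for 8 of MPP, on 10 to 49 reads. The exception was the forward base 123924894 named above. The 3 positions in KI alone were at 0% in MPP on 10 reads each. The other genotype may have had fewer than 10 reads at these positions. How common 1-genotype positions are in the series was not counted, so the counts are a description.

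**Figure D4:**
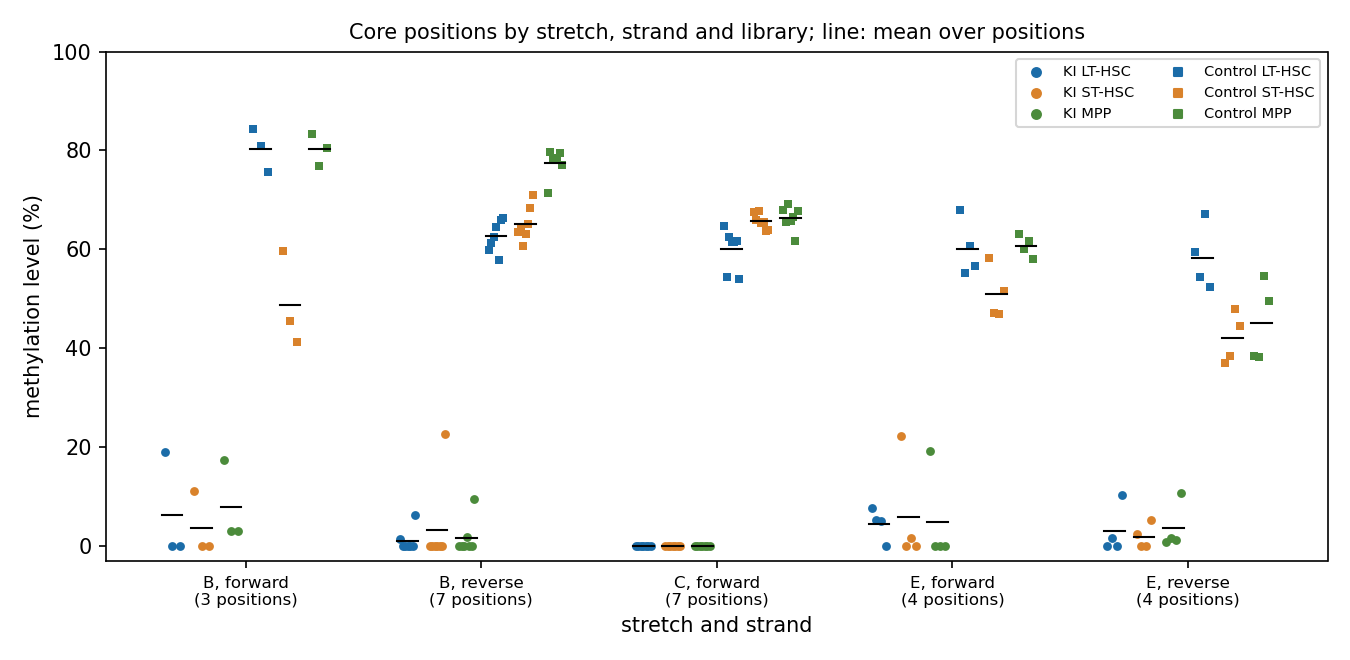
Methylation level in percent at the 25 shared core positions by stretch and strand, with 1 point per position, black lines at the mean, circles for KI (left in each set), squares for Control, and colours for cell types. Control ST-HSC is the lowest Control library on the forward strand of stretch B, with a mean of 48.8%, against 80.3% in LT-HSC and 80.2% in MPP.

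Between cell types, core levels differed by -13.0 to 16.4 points at single positions among KI libraries and by -35.4 to 39.3 points among Control libraries. KI levels were near 0, which limits their range, and the genotypes were not tested against each other. The contrast between cell types did not itself choose the locus. It was tested per position with a two-sided Fisher exact test on reads, adjusted over all positions of the series (Benjamini-Hochberg). A call needed an adjusted p under 0.01 and 25 points, and compares 2 libraries, not the cell types. Reads copied by amplification count as separate reads in this test, so its p-values may be too small. Within KI, 0 of 45 locus positions were called for MPP against LT-HSC, 0 of 33 for ST-HSC against LT-HSC and 0 of 36 for MPP against ST-HSC. Over the series, these KI comparisons called 1.29, 0.649 and 0.217% of positions. Unadjusted p-values under 0.05 were found at 3, 4 and 0 locus positions, and at 12.7, 9.75 and 8.66% of positions in the series. At low levels such as those of KI, a fall of 25 points was not possible. The locus was chosen by its lower levels in KI, so few calls within KI partly follow from that choice.

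Within Control, 1 of 45 locus positions was called for MPP against LT-HSC, 3 of 45 for ST-HSC against LT-HSC and 4 of 56 for MPP against ST-HSC. The shares of the series were 5.62, 2.32 and 3.89%. Unadjusted p-values under 0.05 were found at 17, 15 and 15 locus positions, and at 17.4, 15.1 and 16.1% of positions in the series. With every position thinned to 10 reads, 1, 0 and 0 locus positions were called, so each call that involves ST-HSC was lost. At 10 reads per library the test has little power, so this loss does not show whether those calls hold. In the core the calls came from 2 neighbouring forward positions of stretch B. Base 123924652 was at 80.8% (LT-HSC), 45.5% (ST-HSC) and 76.8% (MPP), with adjusted p 8.48e-07 for ST-HSC against LT-HSC and 2.59e-05 for MPP against ST-HSC (Fisher exact test). Base 123924660 was at 75.6, 41.2 and 80.5% in the same order (adjusted p 4.37e-06 and 5.62e-08). The reverse strand of the same stretch averaged 62.6% (LT-HSC), 65.2% (ST-HSC) and 77.5% (MPP).

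The remaining Control calls were in the flank downstream, on few reads. Base 123926972 in stretch F was at 16.7% of 12 reads in ST-HSC, against 100% in LT-HSC (22 reads) and 100% in MPP (51 reads). Base 123933175 in stretch G was at 19% of 21 reads in MPP, against 92.3% in ST-HSC (39 reads) and 100% in LT-HSC (29 reads). KI at the first of these was at 93.9% in ST-HSC and 97.4% in MPP, and at the second at 80% of 10 reads in MPP. The other base of stretch G, 123933137, was at 100% of 10 reads in KI MPP, against 3.57, 0 and 25% in Control. Downstream, the KI libraries that covered these stretches were thus at 80% or more.

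Cell types were also compared over 1 kb windows, with genotype as a block, which leaves 2 residual degrees of freedom. With limma on log2 methylated over unmethylated reads, 0 of the 3 locus windows passed an adjusted p of 0.05 in any of 3 contrasts, and 0 of 25123 windows (0%) passed in the series. Unadjusted p-values under 0.05 were found in 1870 windows for MPP minus LT-HSC, 1176 for ST-HSC minus LT-HSC and 957 for MPP minus ST-HSC, none of them at the locus. The core window from 123924001 to 123925000 differed by 0.75 on this log2 scale for MPP minus LT-HSC (SE 0.44, adjusted p 0.736). The window from 123925001 to 123926000 differed by -0.0022 (SE 0.43, adjusted p 0.999).

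The position pattern inside the core was shared to a varying degree. Across the 25 core positions, which share fragments and reads, Pearson r was 0.624 to 0.847 between pairs of KI libraries. Between pairs of Control libraries it was -0.014 (LT-HSC and ST-HSC), 0.546 (LT-HSC and MPP) and 0.607 (ST-HSC and MPP). Outermost positions enter these KI values.

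Around the locus, eRRBS covered little. Within 250 kb on each side there were 31 shared positions, with mean levels of 4.69, 6.97 and 6.93% in KI LT-HSC, ST-HSC and MPP, against 6.64, 5.75 and 3.05% in Control. Their scaled coverage in KI was 0.921, 0.973 and 1.37 times Control. The fall of 25 points in every cell type was seen at none of them. At mean Control levels of 3.05 to 6.64% such a fall was hardly possible, so this does not show that the surroundings were spared. Downstream of the core, the nearest shared position was 200054 bases away.

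Of 12 listed genes, mostly chemokine receptors of chromosome 9 with their neighbours, 5 had a shared position within 1000 bases, and 0 differed by 10 points in 1 direction in all cell types. At Lztfl1, Fyco1 and Xcr1 the mean Control level was under 10%, so a fall of 10 points was not possible. Lztfl1, a regulator of protein traffic to cilia, had 24 positions at 4.05, 5.40 and 4.97% in KI LT-HSC, ST-HSC and MPP, against 5.06, 5.28 and 2.76% in Control. Fyco1, an adaptor of vesicle transport, and the chemokine receptor gene Xcr1 share the same 6 positions, at 0.962, 3.03 and 3.79% in KI, against 3.45, 0 and 0% in Control. Ltf, which encodes lactoferrin, lies far from the locus, at bases 111019292 to 111042766, as does Ccrl2, from 111054834. Ltf was methylated in all libraries, at 98.0, 95.2 and 92.0% in KI and 96.5, 92.3 and 97.2% in Control over 13 positions. Ccr9, Cxcr6, Ccr1, Ccr1l1, Ccr3, Ccr2 and Ccrl2 had no shared position.

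Among the 25123 windows, those outside the locus were all at least 19.4 points (root mean square over the 6 libraries) from the core in level. The 5 nearest were at Rab10os (19.4), Asb4 (20.4), Eps8l1 (22.5), Gm7389 (23.1) and Fstl4 (24.4). The core was chosen by its difference between KI and Control in these levels, so its distance from other windows is a description. How far other windows lie from their own nearest is not given here. Asb4, which encodes an ankyrin repeat protein, was at 3.76, 6.05 and 9.38% in KI LT-HSC, ST-HSC and MPP, against 44.2, 40.9 and 24.3% in Control over 5 positions. Its scaled coverage in KI was 1.00, 0.635 and 1.76 times Control. Rab10os, an antisense transcript gene, was at 29.6, 13.1 and 11.3% in KI and 39.5, 40.7 and 44.8% in Control over 13 positions, with coverage ratios of 1.67, 0.763 and 1.56. At Fstl4 the ratios were 0.293, 0.454 and 1.54, so 2 of the 3 were low there too. Its levels were 4.29, 42.5 and 43.2% in KI, against 49.0, 49.4 and 57.4% in Control. At Eps8l1 the ratios were 1.48, 0.841 and 1.11, and at Gm7389 they were 1.52, 0.967 and 0.840. The core's own ratios were 0.181, 0.257 and 0.234.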

How the data were processed

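Each library was 1 deposited table of cytosine positions by strand. Per the submitters' processing notes, the tools were Bismark 0.10.0, SAMtools 1.0 and methylKit 0.9.1, with build mm10. Settings, conversion rate and whether duplicates were removed: not given in the sources used here. Coverage was deposited as read counts, at least 10 per position. The deposited level is the percent of a position's reads that kept C. Multiplied by coverage, it gave whole methylated reads at 100% of positions (tolerance 0.01% of coverage).

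Levels are unweighted means over positions unless stated. Cell types were compared with Fisher exact tests in Python 3.11.15 and limma 3.58.1 in R 4.3.3 (1 kb windows holding 5 or more shared positions, prior count 1, trended variance, 2 residual degrees of freedom), both adjusted over the whole series. Both were run on simulated data with large changes, which does not show how small a change they could detect. The 3 cell types of a genotype may come from the same mice. The locus, the gene list, the tests and the naming rule (Gm51701, its neighbours, the 12 listed genes, the 5 nearest windows) were chosen with earlier results of these data known. Alternatives were other coverage minimums, thresholds, strands, weights, scalings and windows, and thinning to 10 reads. The values of 1 listed gene are not reported here.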

Additional observations from a re-analysis of the deposited data

Results flagged for a closer look

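The reverse-strand base 123923676, at the end of stretch A nearest to the core, differed between genotypes in opposite directions by cell type. It is also an outermost position as defined above for core stretches. Among the 3 reverse positions of stretch A it was the highest in each KI library and in Control LT-HSC and ST-HSC. The differences, KI minus Control, were -12.1 (LT-HSC), 16.6 (ST-HSC) and 14.3 (MPP) points. The levels were 6.08, 19.6 and 14.3% in KI LT-HSC, ST-HSC and MPP on 148, 46 and 84 reads, against 18.2, 2.94 and 0% in Control on 33, 34 and 39 reads. Whether the KI minus Control difference itself changed between cell types was not tested. Within a genotype, no comparison of cell types at this base was called by the Fisher exact test, with the lowest adjusted p at 0.0584 for Control MPP against LT-HSC.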

How the results depend on the processing

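The labels give no replicate numbers to pair by, and the window fits paired cell types only through genotype as a block. Cell types could pair KI with Control, but that contrast chose the locus and was not tested. The core difference of -59.8 points kept its sign and stayed within 1 SD over cell types under every alternative run, with -62.4 to -57.7 when 1 cell type was left out. The coverage ratio of 0.222 was 0.129 on the forward strand and 0.390 on the reverse, and 0.206 to 0.245 without 1 cell type. With 50 points, 14 positions were lower in KI in place of 25. With 10 points as the limit, Control calls at the locus were 5 (MPP against LT-HSC), 8 (ST-HSC against LT-HSC) and 7 (MPP against ST-HSC). Thinned to 10 reads, a depth that leaves the test little power, both comparisons with ST-HSC gave 0 calls. The shares of the series at these settings are not given here, so the counts are a description. The cause of these changes was not tested. The window fits gave 0 locus calls under each alternative. Over the series, 8 windows passed for MPP minus LT-HSC with at least 10 positions per window. Depth limits KI in stretch C, at 10 to 15 reads, and in stretch G, at 10 reads in 1 library.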
